A study of Homo sapiens with 6 samples.

Results

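Glutathione S-transferases (GSTs) join the thiol of glutathione to electrophilic compounds, which makes these more soluble and ready for export. The cytosolic enzymes are soluble dimers of several classes, named alpha, omega, pi and zeta among others, and GSTK1 is a mitochondrial and peroxisomal enzyme. MGST1, MGST2 and MGST3 are membrane proteins of the MAPEG family, whose other members take part in making eicosanoids. In hepatocytes, alpha class enzymes are abundant, and several GST genes are known targets of nuclear factor E2-related factor 2 (NRF2), which binds the antioxidant response element (ARE).

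The 10 genes examined here are GSTA1, GSTA2, GSTA4, GSTK1, GSTO1, GSTP1, GSTZ1, MGST1, MGST2 and MGST3, chosen by their symbols, and 10 of 10 were found among the 61541 Ensembl genes of the count table. RNA-seq libraries came from luciferases-expressing HepG2 cells, a human hepatoblastoma line that carries an ARE-driven red luciferase and a constitutive green luciferase on a mouse artificial chromosome vector. In the sedanolide group, cells were given sedanolide, a phthalide of celery oil, at 100 μM for 24 h (n = 3 libraries). The control group was labelled only as control at 24 h (n = 3 libraries). Sedanolide was dissolved in dimethyl sulfoxide, and whether control cells received this solvent is not given in the sources used here, nor is whether the reporter line is 1 clone. Nothing in the labels says that replicates are separate cultures, so that the p-values measure the spread between these libraries, which may be technical.

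Total expected counts were 16420258 to 22940963 in control and 19027265 to 26714853 in sedanolide libraries. After filtering, 9 of the 10 genes were tested among 14104 genes and reporters, and GSTP1 had too few counts. The libraries differed along principal component 1, with 56.1% of the variance. Its side A held control 1, control 2 and sedanolide 3, and its side B held control 3, sedanolide 1 and sedanolide 2. Mitochondrial genes took 1.43% to 2.15% of counts on side A and 4.23% to 5.22% on side B, and no label explains the sides. Hepatocyte markers were expressed, with AFP, the fetal plasma protein alpha-fetoprotein, at 4965 to 18439 CPM, that is, counts scaled to library size. COL1A2, DCN and LUM of fibroblasts, VWF, KDR and TEK of endothelium and CD3E of T cells were at 0 counts in all libraries. Of the marker lists, 10 of 10 hepatocyte, 4 leukocyte and 3 cholangiocyte genes, ACTA2 and PECAM1 were tested. Of these, 0 were called by edgeR, against 51 higher and 44 lower of all 14104 tested. An unadjusted p-value under 0.05 (edgeR) was found for 3 hepatocyte, 1 leukocyte and 1 cholangiocyte genes, against 1681 of all 14104. The cholangiocyte gene was KRT19, with a log2 fold change of -1.21 (edgeR adjusted p = 0.186). The log2 fold change was negative for 9 of 10 hepatocyte markers (median -0.33). Of these markers, 3 were entirely lower in sedanolide libraries, as were 9.66% of all genes tested. The summed hepatocyte markers were at 29952 to 45980 CPM in control and 22137 to 38940 CPM in sedanolide libraries. AFP and APOB, the largest parts of this sum, were higher in all libraries of side A than in all of side B. AFP was at 13262 to 18439 CPM on side A and 4965 to 7880 CPM on side B. The groups are unequally divided between the sides, so that this sum mixes treatment and side. LYZ, listed as a leukocyte marker, was at 804 to 1319 CPM in control and 467 to 756 CPM in sedanolide libraries, and its part in the results below was not tested. In bulk RNA, a change in the number of expressing cells and a change in RNA per cell cannot be told apart.

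Sequences upstream of the genes are shown first, since GSTA1 and GSTA2 are adjacent paralogs whose counts moved together, and since the ARE is the element that the reporter line reads. The 250 bases before the RefSeq start (GRCh38.p14, minus strand, chr6:52803817-52804066 for GSTA1 and chr6:52763476-52763725 for GSTA2) aligned without gaps and were identical at 243 of 250 bases (97.2%). Capitals mark the 7 bases that differ.
GSTA1: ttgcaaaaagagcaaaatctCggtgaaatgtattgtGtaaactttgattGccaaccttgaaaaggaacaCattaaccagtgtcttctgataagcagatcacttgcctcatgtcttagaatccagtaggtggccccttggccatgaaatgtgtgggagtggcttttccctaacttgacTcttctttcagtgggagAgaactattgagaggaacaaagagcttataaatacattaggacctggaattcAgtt
GSTA2: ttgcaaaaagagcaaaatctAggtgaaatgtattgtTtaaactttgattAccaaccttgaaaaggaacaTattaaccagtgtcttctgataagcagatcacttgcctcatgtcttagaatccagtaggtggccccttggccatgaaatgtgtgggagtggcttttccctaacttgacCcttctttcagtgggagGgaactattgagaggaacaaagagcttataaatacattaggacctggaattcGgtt
Both windows hold TATAAA, the TATA box letters, at position -30 from the start, which 10.7% of the 35116 windows of all promoters hold on either strand. Neither holds the ARE core letters TGACNNNGC on either strand, which 10.9% of all windows hold. No match says only that these letters are not in the window.

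Of the 10 genes, 9 had a promoter in the table (11 windows, 3 of them of MGST1), and MGST2 had none. The ARE core letters were found in 3 genes, GSTO1, GSTP1 and GSTA4, and are shown in capitals with the flanking bases on the strand of the gene. The windows were chr10:104254642-104254891 (plus strand) for GSTO1, chr11:67583562-67583811 (plus strand) for GSTP1 and chr6:52995285-52995534 (minus strand) for GSTA4.
GSTO1 at -226: cggagggaTGACTGAGCatttataa
GSTO1 at -161: agatgcttTGACACAGCcccttaag
GSTP1 at -66: cggcgccgTGACTCAGCactggggc
GSTA4 at -9: gggaccgcTGACCTGGC
The GSTP1 match overlaps TGANTCA, the letters of the TPA response element, which 6.57% of windows hold. The GC box letters GGGCGG were present in windows of 6 genes, GSTK1, GSTO1, GSTP1, GSTZ1, MGST1 and MGST3, and in 42.6% of all windows. These matches describe letters and are not evidence of binding.

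The main question was which of the transferases changed with sedanolide. The alpha class genes GSTA1 and GSTA2 rose, by 5.10-fold and 3.88-fold in the fit, and MGST1 was 2.12-fold higher but just missed the false discovery rate (FDR) threshold. The remaining 6 tested genes had fold changes between 0.883 and 1.29 and did not pass the test. No tested transferase was called lower by edgeR or by DESeq2, although the log2 fold changes of MGST2 and MGST3 were negative (-0.13 and -0.18, edgeR). Calls required an FDR of 0.05 over all tested genes together with a fold change of 1.5. At these thresholds 2 of the 9 tested genes were called higher, against 0.362% of all genes tested. The study had named GSTA1, GSTA2 and MGST1 from these libraries, so this count is not independent evidence of a direction. The median log2 fold change of the 9 genes was 0.35, and that of all genes tested was 0.0057. The former is the value of GSTO1, and it was 0.15 without sedanolide 1, 0.20 without control 2 and 0.12 after adjustment for the side of component 1. The sedanolide libraries lay entirely above the control libraries in normalized CPM for 4 of the 9 genes, GSTA1, GSTA2, GSTA4 and MGST1, against 8.69% of all genes tested, and entirely below for 0 of the 9, against 9.66% of all genes tested.

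**Figure D1:**
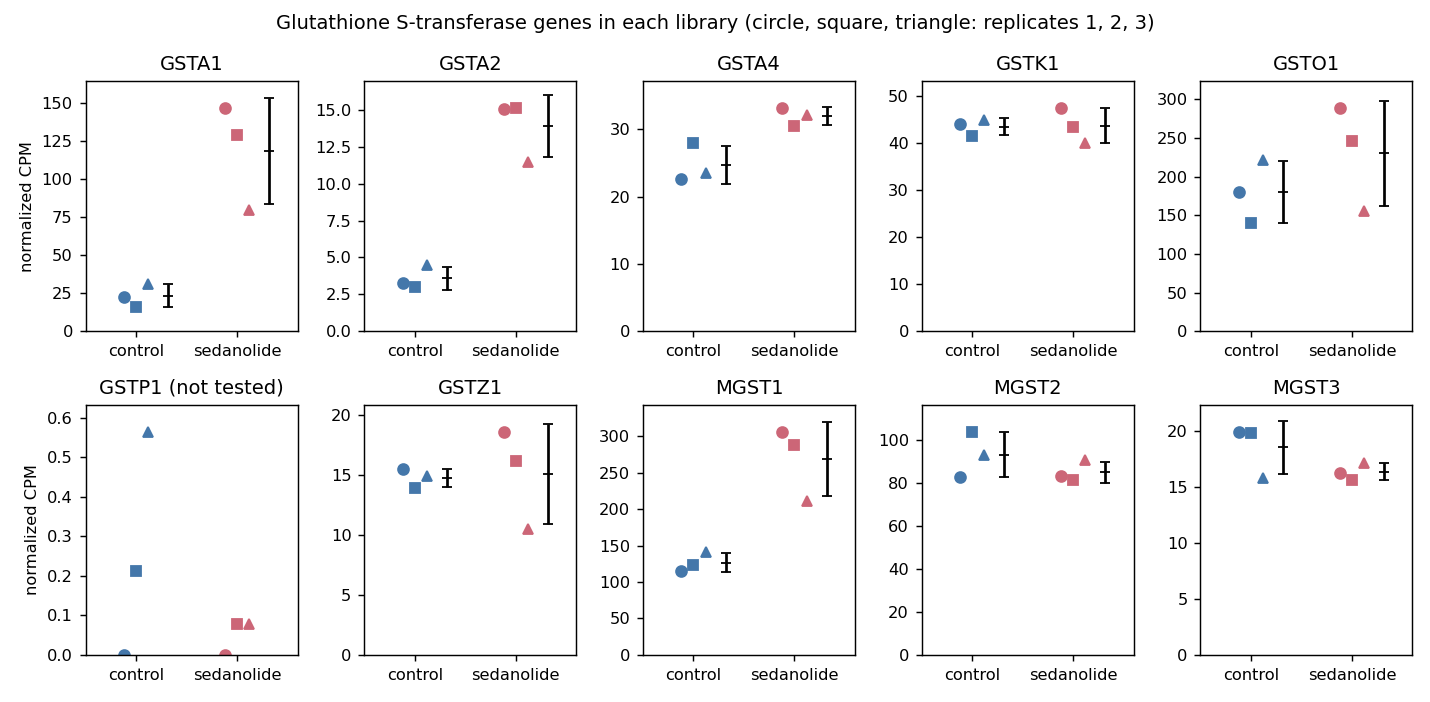
Normalized CPM (vertical axes, each from 0) of the 10 genes in the 3 control (blue) and 3 sedanolide (red) libraries, with the mean ± SD of each group in black for the 9 tested genes. The groups are separate for GSTA1, GSTA2, GSTA4 and MGST1 and overlap for the other tested genes.

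GSTA1 (ENSG00000243955, an alpha class enzyme of liver and steroid-producing tissue) lies on chromosome 6 of GRCh38 from 52791371 to 52803860 on the minus strand. Its normalized expression was 22.7, 16 and 31.1 CPM in control 1 to 3 and 147, 129 and 79.9 CPM in sedanolide 1 to 3. The lowest sedanolide library was sedanolide 3, and it was above the highest control library, control 3. The log2 fold change was 2.35 (95% interval 1.61 to 3.09, edgeR adjusted p = 0.0300, by Benjamini-Hochberg over all tested genes). GSTA2 (ENSG00000244067, chromosome 6, 52750087 to 52763475, minus strand) encodes a closely related alpha class enzyme. It was at 3.27, 3.01 and 4.46 CPM in control 1 to 3 and at 15.1, 15.1 and 11.5 CPM in sedanolide 1 to 3. As for GSTA1, control 3 was the highest control and sedanolide 3 the lowest sedanolide library. The log2 fold change was 1.96 (95% interval 1.47 to 2.44, edgeR adjusted p = 0.0172). Both calls were lost without control 1, control 2, sedanolide 1 or sedanolide 2. The adjusted p-values of these fits by edgeR were 0.0927 to 0.227 for GSTA1 and 0.0689 to 0.171 for GSTA2, with log2 fold changes of at least 2.14 and 1.84.

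The division of reads between the paralogs was examined next. The canonical transcripts of GSTA1 and GSTA2 were identical at 95.2% of 1218 aligned bases, and 60 of the 1069 stretches of 150 bases in GSTA1 also occur in GSTA2. No such stretch of the canonical transcripts of the other 8 genes was found in a transcript of another gene. Other transcripts of these 8 genes were not examined, and the expected counts of MGST2 were not whole numbers in 3 libraries. The expected counts of GSTA1 and GSTA2 were not whole numbers in any library, whereas their sums were whole in all 6. These sums were 429, 448 and 630 counts in control 1 to 3 and 3012, 3731 and 2305 counts in sedanolide 1 to 3. Fitted as 1 feature, which does not depend on the division of reads, the sum rose by 2.30 ± 0.299 (SE) on the log2 scale (edgeR adjusted p = 0.0291), a call that was also lost without control 1, control 2, sedanolide 1 or sedanolide 2. GSTA2 took 12.6%, 15.8% and 12.5% of the summed counts in control 1 to 3 and 9.30%, 10.5% and 12.5% in sedanolide 1 to 3, so that GSTA1 held most of the counts in all libraries. Whether this share differed between groups was not tested.

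GSTA4 (ENSG00000170899, chromosome 6, 52977948 to 52995304, minus strand) is the alpha class enzyme with high activity toward 4-hydroxynonenal, a product of lipid peroxidation. Its levels were 22.7, 28.0 and 23.5 CPM in control 1 to 3 and 33.2, 30.5 and 32.1 CPM in sedanolide 1 to 3. The groups did not overlap, but the difference was small. The log2 fold change was 0.37 (95% interval 0.072 to 0.66, edgeR adjusted p = 0.311), which is not past the FDR or the fold change threshold.

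MGST1 (ENSG00000008394, chromosome 12, 16347142 to 16609259, plus strand) encodes the microsomal transferase that also reduces lipid hydroperoxides and is abundant in the endoplasmic reticulum and outer mitochondrial membrane of liver. Its expression was 116, 123 and 141 CPM in control 1 to 3 and 307, 288 and 211 CPM in sedanolide 1 to 3. All sedanolide libraries were above all control libraries, and sedanolide 3 was again the lowest of them. The log2 fold change was 1.08 (95% interval 0.68 to 1.49) with an adjusted p of 0.0513 from edgeR, so that the call depended on the method. With DESeq2, MGST1 was called (adjusted p = 1.50e-06), and GSTA1, GSTA2 and MGST1 were the transferases called higher, against 0.922% of all genes. MGST1 was past both thresholds in 7 of 16 other settings on the counts, and in 1 of the 6 fits that left out a library, the fit without sedanolide 3 (edgeR adjusted p = 0.0129, and 0.125 to 0.336 in the other 5).

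MGST2 (ENSG00000085871, chromosome 4, 139665768 to 139740745, plus strand) and MGST3 (ENSG00000143198, chromosome 1, 165631213 to 165661796, plus strand), its relatives in the MAPEG family, did not share this pattern. MGST2, which can also make leukotriene C4, was at 82.9, 104 and 93.0 CPM in control 1 to 3 and at 83.2, 81.4 and 90.7 CPM in sedanolide 1 to 3. MGST3 was at 19.9, 19.8 and 15.8 CPM in control 1 to 3 and at 16.2, 15.6 and 17.2 CPM in sedanolide 1 to 3. The groups overlapped for both. The 95% intervals of the log2 fold change were -0.43 to 0.16 for MGST2 and -0.50 to 0.14 for MGST3, which leave out a 1.5-fold change in either direction. MGST2 shares 252 exon bases with MAML3, an antisense neighbor that had only 0.703% as many counts as MGST2.

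GSTO1 (ENSG00000148834, omega class, a thioltransferase and dehydroascorbate reductase, chromosome 10, 104235356 to 104267459, plus strand) differed between the sides of component 1. Its levels were 179.7, 139.9 and 221 CPM in control 1 to 3 and 289, 246 and 155 CPM in sedanolide 1 to 3. The 3 libraries of side B were all above the 3 libraries of side A, while control and sedanolide overlapped. Within side A the log2 CPM difference of sedanolide minus control was -0.032, and within side B it was 0.27. The groups are unequally divided between the sides, so that side and treatment are not fully separable for this gene. The log2 fold change was 0.35 (95% interval -0.27 to 0.97, edgeR adjusted p = 0.643), and 0.12 (edgeR adjusted p = 0.697) after adjustment for the side, an analysis added after seeing the data. Its 2 promoter matches to the ARE core are those printed above.

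GSTK1 (ENSG00000197448, kappa class, chromosome 7, 143244093 to 143270854, plus strand) was at 44.1, 41.5 and 44.9 CPM in control 1 to 3 and at 47.5, 43.5 and 40.1 CPM in sedanolide 1 to 3. GSTZ1 (ENSG00000100577, zeta class, the maleylacetoacetate isomerase of tyrosine breakdown, chromosome 14, 77320996 to 77331597, plus strand) was at 15.4, 13.9 and 14.9 CPM in control 1 to 3 and at 18.6, 16.2 and 10.5 CPM in sedanolide 1 to 3. The groups overlapped for both genes, and the sedanolide libraries of GSTZ1 included its highest and its lowest value. The 95% interval of the log2 fold change was -0.26 to 0.27 for GSTK1 and -0.47 to 0.54 for GSTZ1, and the sign of either value depended on the setting.

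GSTP1 (ENSG00000084207, pi class, high in placenta and many tumors, chromosome 11, 67583742 to 67586656, plus strand) was detected at few counts. It had 0, 5 and 10 counts in control 1 to 3 and 0, 2 and 2 counts in sedanolide 1 to 3. A count of 0 allows up to 3 counts, or 0.183 CPM of all counts in control 1 and 0.158 CPM in sedanolide 1, a limit that covers counting error only. No fold change is given at this depth. The window before its start holds the ARE core letters printed above.

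**Figure D2:**
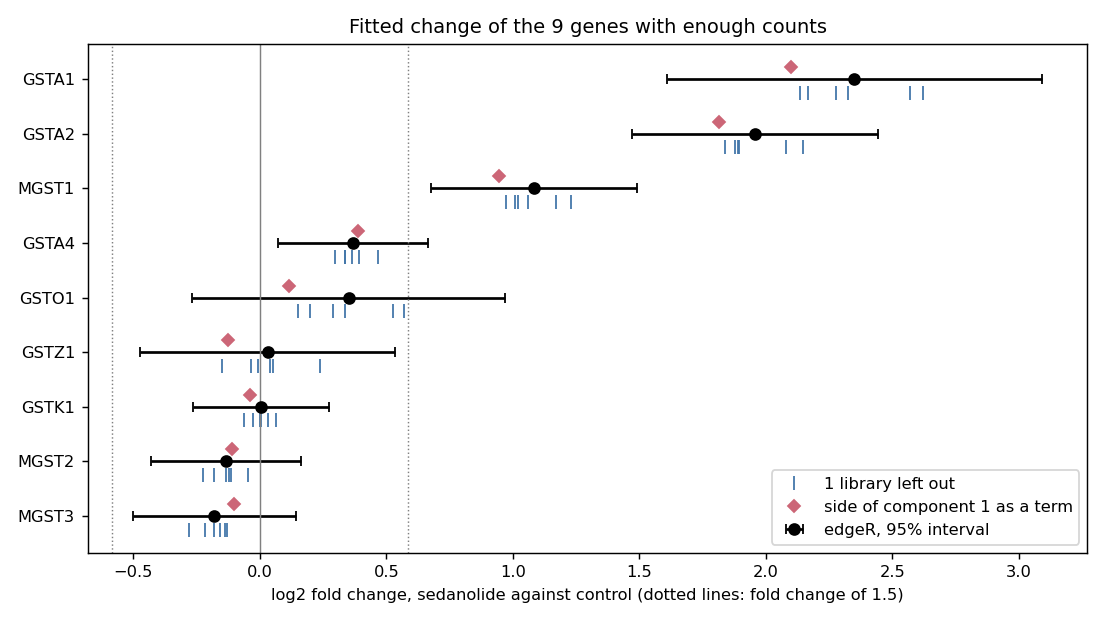
Log2 fold change of sedanolide against control (horizontal axis) for the 9 tested genes, with the 95% interval from edgeR (black), the values when 1 library was left out (blue ticks) and the value adjusted for the side of component 1 (red diamonds). GSTA1, GSTA2 and MGST1 stay above the fold change of 1.5 in all of these fits, and the intervals of GSTK1, GSTO1, GSTZ1, MGST2 and MGST3 include 0.

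The sides were then taken into account. Within side A, with 2 control and 1 sedanolide libraries, the log2 CPM difference was 2.06 for GSTA1, 1.84 for GSTA2 and 0.82 for MGST1. Within side B, with 1 control and 2 sedanolide libraries, it was 2.14, 1.74 and 1.07. These differences were positive within both sides, each of which holds too few libraries for a test. The side was read from the expression values of these same libraries, after seeing the data, and the fit treats it as known. Adjusted p-values with this term do not allow for that choice and may be too small. With the side as a term, GSTA1 (log2 fold change 2.10, edgeR adjusted p = 0.000112), GSTA2 (1.82, adjusted p = 0.000135) and MGST1 (0.95, adjusted p = 0.00131) were called higher, against 1.07% of all genes tested. GSTA4 was not called with this term (log2 fold change 0.39, edgeR adjusted p = 0.104), with differences of 0.35 and 0.43 within sides A and B.

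**Figure D3:**
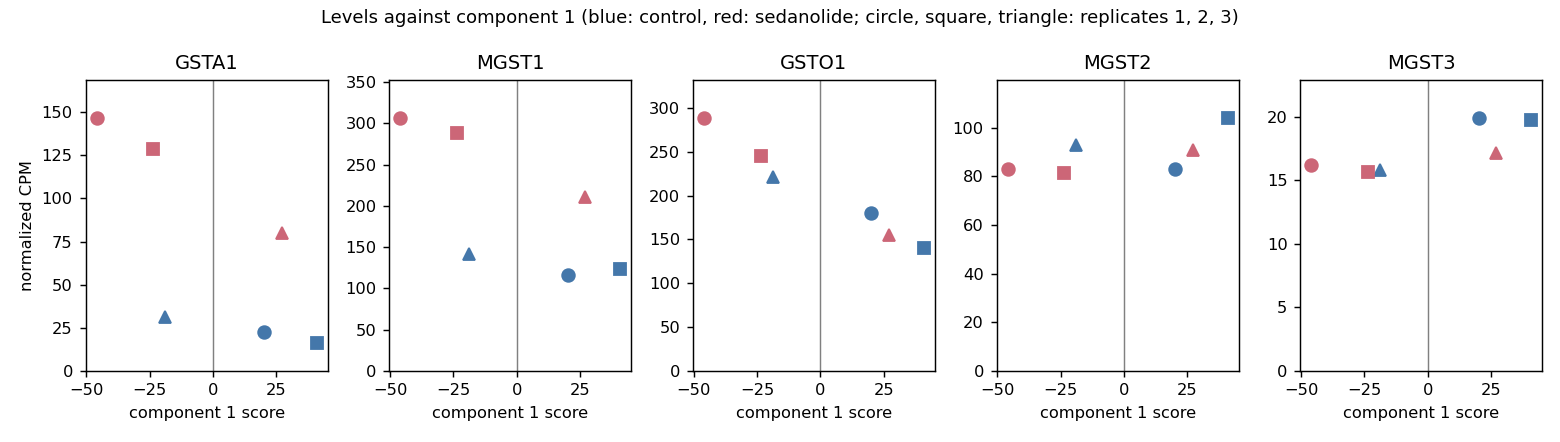
Normalized CPM (vertical axes, each from 0) of GSTA1, MGST1, GSTO1, MGST2 and MGST3 against the score of each library on component 1 (horizontal axis, no unit), with control in blue and sedanolide in red. GSTA1 and MGST1 are higher in sedanolide libraries on both sides of 0. GSTA1 and GSTO1 fall from left to right within both groups, and MGST1 does so within the sedanolide libraries.

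Levels of different genes were compared in TPM, a scale that divides by transcript length and library size, with values recovered from the deposited log2(TPM + 1) table. This table holds 9 of the 10 genes and not GSTP1. In control cells the order of TPM was led by GSTO1 (357 to 486), followed by MGST1 (241 to 280) and MGST2 (215 to 299), the last pair overlapping. GSTK1 (70.6 to 74.8) came next, then MGST3 (38.2 to 58.1), GSTA1 (25 to 43.4) and GSTA4 (30.4 to 41.8), which overlapped with each other, and GSTZ1 (22 to 24.3) and GSTA2 (4.49 to 5.88) were the lowest. In sedanolide-treated cells MGST1 (442 to 543) and GSTO1 (372 to 590) overlapped at the top. GSTA1 (119 to 192) moved from the sixth to the fourth place and overlapped with MGST2 (189.9 to 244), and GSTA2 (16.3 to 19.0) overlapped with GSTZ1 (17.3 to 26.4). GSTK1 (65.7 to 70.1), GSTA4 (37.6 to 44.8) and MGST3 (34.7 to 46.6) lay between. On the deposited log2 scale, limma called GSTA1 (log2 difference 2.20, adjusted p = 0.0244), GSTA2 (1.67, adjusted p = 0.00888) and MGST1 (0.93, adjusted p = 0.0459) higher, against 0.3% of the genes of this table. With 0.1 added to the TPM in place of 1, GSTA1 and GSTA2 were called and MGST1 was not. Without control 1, control 2 or sedanolide 2, none of these was called in the table, and GSTA2 alone was called without control 3 or sedanolide 1. The added 1 makes the log2 difference of a low gene such as GSTA2 smaller than that of the TPM.

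The summed TPM of the 9 genes was 1151 ± 57.4 in control and 1557 ± 171 in sedanolide-treated cells (SD, n = 3), with ranges of 1091 to 1206 and 1369.7 to 1706 that did not overlap. GSTA1 and GSTA2 together made up 2.56% to 4.09% of this sum in control and 9.84% to 12.4% in sedanolide libraries. MGST1 made up 22.1% to 23.5% in control and 31.8% to 33.2% in sedanolide libraries, and MGST2 19.1% to 25.8% and 11.1% to 17.8%. The shares add up to the whole, so that a larger share of one gene lowers those of the others. The 3 MAPEG genes together took 48.8% ± 4.91 of the sum in control and 48.7% ± 4.34 in sedanolide-treated cells (SD, n = 3), which differed by less than the spread between libraries.

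**Figure D4:**
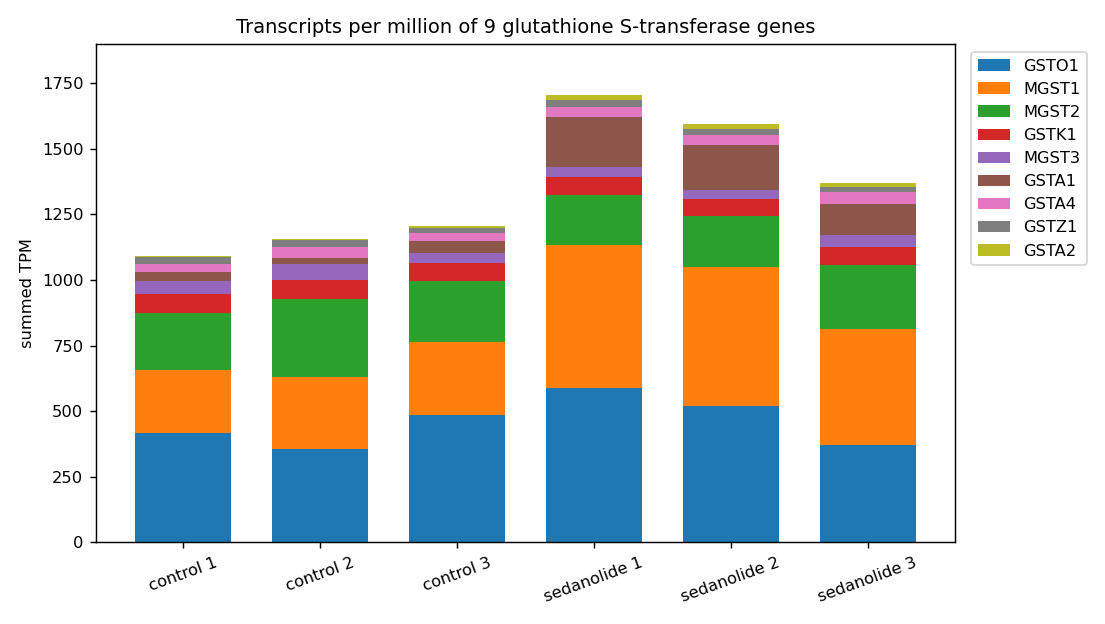
TPM of 9 glutathione S-transferase genes (stacked, vertical axis from 0) in each library, recovered from the deposited log2 table. The sums are 1091 to 1206 in control and 1369.7 to 1706 in sedanolide libraries, and the parts of MGST1 and GSTA1 are larger in all 3 sedanolide libraries.

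The rest of the GST and MAPEG genes were examined with a list of 18, of which 17 were found by symbol (GSTT1 was not). The list also holds PTGES2, which is not a MAPEG gene. GSTA3, GSTA5, GSTM1, GSTM5, GSTT4 and HPGDS had 0 counts in all libraries, and 6 genes had enough counts to be tested. None of these was called by edgeR, DESeq2 or limma-voom. Of all genes tested, edgeR called 0.362% and DESeq2 0.922% higher, so that 0 calls among 6 genes say little about them. An unadjusted p-value under 0.05 with edgeR was found for 0 of 6, against 1681 of 14104 tested. The largest differences were in GSTM2, a mu class gene, at 7.63, 8.13 and 8.03 CPM in control 1 to 3 and 7.04, 7.11 and 5.43 CPM in sedanolide 1 to 3. Its log2 fold change was -0.28 (edgeR adjusted p = 0.527). GSTO2, the neighbor of GSTO1, had a log2 fold change of -0.18 (edgeR adjusted p = 0.604) and GSTCD, a GST-like domain gene, of 0.095 (edgeR adjusted p = 0.907). GSTM2 and GSTO2 were entirely lower in sedanolide libraries, as were 9.66% of all genes tested.

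The genes around the transferases were compared in 3 lists, for glutathione supply, for export and processing of conjugates, and for glutathione peroxidases. The study had named GCLC, GCLM, ABCC3 and GPX2 as higher in these libraries, so calls in these lists are not independent evidence. In the supply list, 13 of 14 genes were tested, of which 2 were called higher, against 0.362% of all genes tested, and 0 lower (edgeR), and the median log2 fold change was 0.53. These were GCLM and GCLC, the modifier and catalytic subunits of glutamate-cysteine ligase, which makes the first step of glutathione synthesis, with log2 fold changes of 1.87 and 1.66 (edgeR adjusted p = 0.00324 and 0.00469). GCLM was at 26.5, 32.5 and 31.7 CPM in control 1 to 3 and at 113, 117 and 103 CPM in sedanolide 1 to 3. GCLC was at 78.1, 95.4 and 82.1 CPM in control 1 to 3 and at 255, 270.3 and 281 CPM in sedanolide 1 to 3. The groups did not overlap for either subunit, and sedanolide 3 was not the lowest sedanolide library of GCLC, unlike for GSTA1. SLC7A11, the cystine transporter, had a log2 fold change of 1.19 (edgeR adjusted p = 0.0513). With DESeq2, 5 genes of this list were called higher, against 0.922% of all genes tested.

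In the list of conjugate export and mercapturate formation, 18 of 21 genes were tested, with 1 called higher (0.362% of all genes tested were), 0 called lower (edgeR) and a median log2 fold change of 0.15. ABCC3, an efflux pump of the basolateral membrane for glucuronide and other conjugates, was at 12.1, 11.7 and 12.8 CPM in control 1 to 3 and at 46.5, 39.6 and 41.3 CPM in sedanolide 1 to 3. Its log2 fold change was 1.80 (edgeR adjusted p = 0.00324). NAT8, which acetylates cysteine conjugates in the last step of mercapturate formation, had a log2 fold change of -0.99 (edgeR adjusted p = 0.266). It was at 1.99 to 2.88 CPM in control and at 0.951 to 1.72 CPM in sedanolide libraries, which do not overlap. GGT6, a gamma-glutamyltransferase family gene, had a log2 fold change of 0.76 (edgeR adjusted p = 0.473).

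Of 7 genes of the glutathione peroxidase list, which also holds GPX7 and GPX8, endoplasmic reticulum enzymes with little activity toward glutathione, and the peroxiredoxin PRDX6, 7 were tested. In this list 1 was called higher, against 0.362% of all genes tested, and 0 were called lower (edgeR), with a median log2 fold change of -0.024. GPX2, the gastrointestinal glutathione peroxidase, was at 69.9, 57.2 and 80.4 CPM in control 1 to 3 and at 209, 208 and 176 CPM in sedanolide 1 to 3, a log2 fold change of 1.52 (edgeR adjusted p = 0.0172). GPX3, the plasma form, and GPX1, the cytosolic form, had log2 fold changes of -0.76 (edgeR adjusted p = 0.277) and -0.25 (edgeR adjusted p = 0.533). Without control 1 or without sedanolide 2, 0 genes of these 3 lists were called, and without control 2 or sedanolide 1 the peroxidase list had 0.

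**Figure D5:**
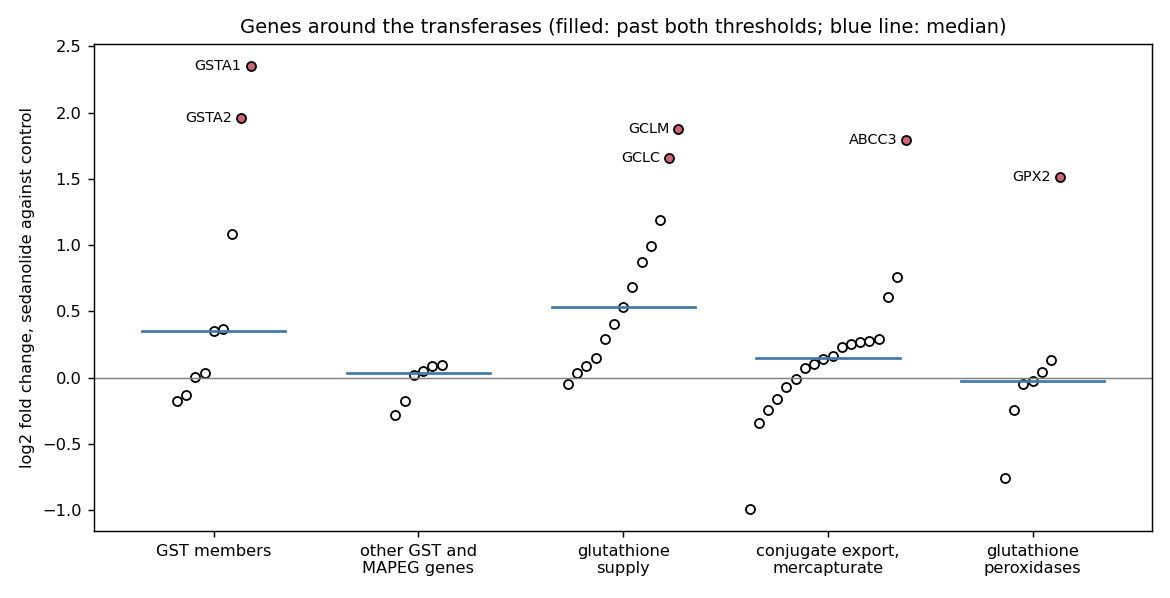
Log2 fold change of sedanolide against control (vertical axis) for the tested genes of the transferases and of 4 lists around them, with genes past both thresholds filled and named and the median of each list as a blue line. Called genes are GSTA1, GSTA2, GCLM, GCLC, ABCC3 and GPX2, and the medians of the other GST and MAPEG genes and of the peroxidases are close to 0.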

How the data were processed

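RNA-seq was analyzed in 3 control and 3 sedanolide libraries of luciferases-expressing HepG2 cells. Per the methods and the submitters' processing notes, mRNA was captured, directional libraries were sequenced as 150 bp paired-end reads, and the authors used FastQC, Trimmomatic, STAR with GRCh38 and RSEM. The versions and the annotation release are not given in the sources used here. The authors deposited unnormalized RSEM expected counts and a table of log2(TPM + 1) for 11006 genes and reporters. The added 1 was inferred from the values, and the filter of this table is not stated.

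Of the identifiers, 61369 were named with GENCODE 44, which also gave positions. After rounding, expected counts were tested in edgeR 4.0.16 under R 4.3.3 (filterByExpr, TMM, robust quasi-likelihood test, condition as the only term). Thresholds (FDR 0.05, fold change 1.5) were those of the methods. DESeq2 (version 1.42.0), which the authors used within iDEP, was an alternative, run here with the filter of the edgeR test. It is not a repeat of the authors' run. The log2 table was tested with limma 3.58.1. Other alternatives were limma-voom, other scalings and filters, no robust prior, the replicate number as a block and leaving out each library. Promoters are those of RefSeq (GRCh38.p14). The test was checked only on simulated counts of independent libraries without a split along component 1, so the check does not cover that split.

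All 10 members are named, with the called genes and the 3 largest changes of each list around them, and the 3 genes most correlated with GSTA1 and with MGST1. The members and lists were chosen with earlier results of these data known. Counts within a condition differed by more than sampling noise, so that no library is a mere resampling of the reads of another. This does not exclude separate library preparations from the same RNA.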

Additional observations from a re-analysis of the deposited data

How the results depend on the processing

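With the reported settings edgeR called 51 genes higher and 44 lower, and 2 transferases higher. DESeq2, run here with the edgeR filter, called 130 and 198 genes, and 5 rather than 2 supply genes higher. The study reported fewer genes in both directions from its own DESeq2 run at these thresholds. Without a filter on low counts 79 and 79 genes were called. When each library was left out, 0 to 66 genes were higher and 0 to 70 lower. The transferases called higher were 0 to 3 in these fits, 0 without control 1, control 2, sedanolide 1 or sedanolide 2. Their median log2 fold change was 0.15 (without sedanolide 1) to 0.36, and that of GSTA1 and GSTA2 summed 2.10 to 2.56. Supply genes called higher numbered 0 to 3, export genes 0 to 1, peroxidase genes 0 to 1 and, among the log2 TPM values, transferases 0 to 3. Without control 1 or sedanolide 2, 1067 and 889 genes had an unadjusted p-value under 0.05 with edgeR, but 0 were called.

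No label says that the shared replicate numbers pair the libraries. The correlations of same-numbered deviations over all genes were -0.13, -0.30 and -0.73. Same-numbered libraries lie on opposite sides of component 1, so these values cannot show whether a weaker pairing exists. With the replicate block, 0 genes were called higher and 0 lower (772 at an unadjusted p-value under 0.05 with edgeR), and 0 transferases, supply, export or peroxidase genes, nor any transferase of the log2 TPM table. Under this block the sum of GSTA1 and GSTA2 was higher by 2.31 on the log2 scale (edgeR adjusted p = 0.435).

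Adjusting for the side of component 1, read from these libraries and added after seeing the data, left 151 genes higher and 230 lower. In that fit 7 supply genes were higher, 2 export genes were higher and 1 lower, and the median of the transferases was 0.12. GSTK1 changed sign from 0.0059 to -0.038 with library size only, -0.027 without control 2, -0.061 without sedanolide 1, -0.00098 without sedanolide 2 and -0.038 with the side, and was at most 0.065, without sedanolide 3. GSTZ1 changed sign from 0.032 to -0.012 with limma-voom, -0.015 with library size only, -0.0028 with the replicate block, -0.0086 without control 2, -0.15 without sedanolide 1, -0.033 without sedanolide 2 and -0.13 with the side, and was at most 0.24, without sedanolide 3. The cause of lost calls was not tested. Leaving out a library also leaves fewer libraries. The log2 fold changes of GSTA1, GSTA2 and MGST1 were 2.10 to 2.62, 1.82 to 2.15 and 0.95 to 1.23 over all 16 other settings.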

Other observations

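The genes whose log2 CPM was most correlated with that of GSTA1 over the 6 libraries were SLC5A11, a sodium and inositol cotransporter, GEMIN5, a protein of the SMN complex, and ODC1, the ornithine decarboxylase of polyamine synthesis (Pearson r = 0.999, 0.999 and 0.998). Their log2 fold changes were 2.90, 0.52 and 0.82. Those most correlated with MGST1 were AHCYL1, a relative of adenosylhomocysteinase, GLA, the lysosomal alpha-galactosidase A, and the gene ENSG00000250132 (r = 0.995, 0.995 and 0.994), with log2 fold changes of 0.46, 1.25 and 0.51. The 6 libraries share the treatment and the sides of component 1, so that these values describe likeness of pattern and carry no test.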
